A study of Mus musculus with 4 samples.

Results

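The genes described here are 10 transcripts that report the output of the RAS-MAPK pathway: the dual-specificity phosphatases Dusp4, Dusp5 and Dusp6, the Sprouty genes Spry1, Spry2 and Spry4, the ETS transcription factors Etv1, Etv4 and Etv5, and cyclin D1, Ccnd1. They were taken by symbol, a list drawn up with earlier results of these data known, from a table of 24062 gene symbols in mouse sciatic nerve. All 10 were found, and all 10 were among the 14700 genes at 1 CPM or more (CPM, counts scaled to library size with TMM factors) in at least 1 library. Nerves came from C57BL/6 mice aged 4 months, with 1 RNA sequencing library for each of 4 genotypes. PKO-NF1 mice were P2RY14-/- with floxed Nf1 (written Nf1fl/f in the label) and Dhh Cre, a Cre driver of the Schwann cell lineage. NF1 mice were Nf1fl/fl with Dhh Cre, and their source label calls the sample a repeat. PKO mice were P2RY14-/-, so without the receptor that UDP-sugars activate, and for WT mice the label gives the strain alone. The labels do not say how many animals a library holds. Cells outside the Dhh lineage keep Nf1, and in whole nerve fewer cells of a type and less RNA per cell cannot be told apart.

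Neurofibromin, the Nf1 product, is a RAS GTPase-activating protein, so its loss leaves RAS bound to GTP for longer and favours signalling through RAF, MEK and ERK. Active ERK enters the nucleus and induces genes that in turn restrain it: DUSP proteins remove the activating phosphates from ERK, and Sprouty proteins act between receptor tyrosine kinases and RAF. The ETV factors of the PEA3 group and cyclin D1 are outputs through which the pathway reaches transcription and entry into the cell cycle. In Schwann cells, ERK activity is known for driving the shift from the myelinating to the repair state.

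With 1 library per genotype no difference could be checked against replicates. Every ratio compares 2 libraries, and its 95% interval (Clopper-Pearson, on the counts) covers counting error only. Calls of higher or lower needed a difference of at least 2-fold and an interval that excluded 1. Total counts ran from 14111201 to 20362685; 3 counts were worth 0.152 to 0.183 CPM. P2ry14 stood at 10.6 (PKO-NF1), 65.3 (NF1), 10.9 (PKO) and 37.6 CPM (WT). Nf1, counted over the whole gene, stood at 20.5, 63.4, 41.0 and 72.8 CPM in the same libraries, so the NF1 library was set little apart from WT by its targeted gene, and Nf1 was lower in PKO, whose label gives no Nf1 mutation, than in NF1. Skeletal muscle markers took 6.57% of counts in NF1 and between 0.0132% and 0.132% in the other 3 libraries. The 15 myelinating Schwann cell markers were all detected in every library, with summed levels of 20102 (PKO-NF1), 9083 (NF1), 35914 (PKO) and 25899 CPM (WT).

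Per kilobase of annotated exon, Ccnd1 was the most abundant of the 10 genes, with a mean over the 4 libraries of 61.9 CPM per kb. Dusp6 (23.9 CPM per kb) and Spry2 (22.6) followed, then Spry1 (13.8), Spry4 (10.4), Etv4 (8.79) and Etv5 (7.31). Etv1 (3.05), Dusp4 (2.66) and Dusp5 (0.427) were the lowest. In the NF1 library 7 of the 10 genes had their highest level, namely Dusp5, Dusp6, Spry2, Spry4, Etv1, Etv4 and Etv5, against 23.7% of all 14700 genes. In the PKO library 7 of the 10 had their lowest level, the same genes with Ccnd1 in place of Etv5, against 23.1% of all genes. The span between a gene's highest and lowest library ran from 1.19-fold for Etv5 to 2.97-fold for Dusp4.

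**Figure D1:**
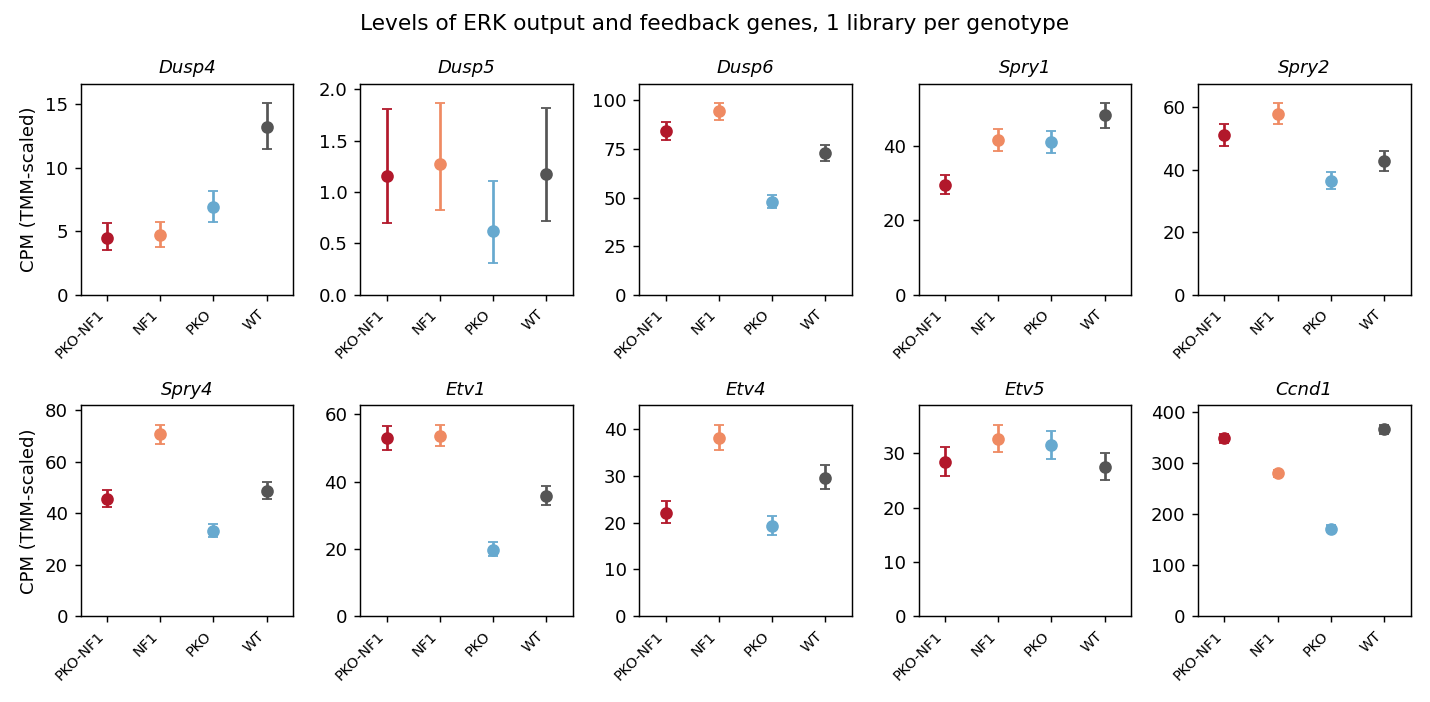
TMM-scaled CPM (vertical axes, linear from 0) of each of the 10 genes in the PKO-NF1, NF1, PKO and WT libraries, with exact Poisson 95% intervals for counting error only and 1 library per genotype. Dusp6, Spry2, Spry4, Etv1 and Etv4 are highest in NF1 and lowest in PKO, Dusp4 and Spry1 are highest in WT and lowest in PKO-NF1, and Ccnd1 is lowest in PKO at 171.8 CPM.

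Regulatory sites of 2 kinds that are known to pass ERK activity to these genes were looked for in the 250 bases upstream of RefSeq transcription starts (GRCm38.p6): the CArG box bound by serum response factor (SRF), and the sequence bound by Capicua (CIC), a repressor that ERK signalling releases from DNA. The RefSeq table held 8 such windows for 6 of the 10 genes, Dusp5, Dusp6, Etv1, Etv5, Spry1 and Spry2. The 3 windows that held a CArG box or the CIC hexamer TGAATG (either strand) are shown, with these matches in capitals. This selection was made after the sequences were seen.
Dusp5, chr19:53528895-53529144, plus strand: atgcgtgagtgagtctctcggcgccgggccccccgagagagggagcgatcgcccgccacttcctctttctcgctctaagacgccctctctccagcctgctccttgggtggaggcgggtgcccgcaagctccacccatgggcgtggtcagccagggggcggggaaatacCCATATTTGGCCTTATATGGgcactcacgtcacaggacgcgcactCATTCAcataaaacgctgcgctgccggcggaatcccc
Dusp6, chr10:99262981-99263230, plus strand: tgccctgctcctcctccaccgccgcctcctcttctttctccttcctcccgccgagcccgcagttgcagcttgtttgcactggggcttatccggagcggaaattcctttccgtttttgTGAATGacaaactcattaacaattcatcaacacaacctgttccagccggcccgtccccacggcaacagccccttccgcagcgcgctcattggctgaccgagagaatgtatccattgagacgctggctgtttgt
Etv5, chr16:22438369-22438618, minus strand: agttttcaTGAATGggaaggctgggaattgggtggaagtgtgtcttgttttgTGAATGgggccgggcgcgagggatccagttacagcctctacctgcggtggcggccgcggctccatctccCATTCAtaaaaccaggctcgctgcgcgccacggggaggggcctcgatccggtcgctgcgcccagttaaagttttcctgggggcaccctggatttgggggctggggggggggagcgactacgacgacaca
The Dusp5 window held 2 adjoining CArG boxes, which 1.47% of all 32851 windows have at least 1 of, and 1 CIC hexamer. The Dusp6 window held 1 CIC hexamer and the Etv5 window held 3, against at least 1 in 10.9% of all windows. A longer CIC octamer, searched as TGAATGNA alone, matched none of the 8 windows (3.2% of all windows). Other spellings of the CIC site were not searched, so windows without a match here may hold one. None of the 8 windows matched the ETS site CCGGAA (12.0%), the AP-1 site TGANTCA (6.75%) or the cyclic AMP element TGACGTCA (1.55%). The shorter ETS core GGAA was in 7 of the 8 windows, and in 93.4% of all. A match is a description of the letters and not a bound site.

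Among the phosphatases, Dusp6, the cytoplasmic ERK-specific phosphatase, was higher and Dusp4, a nuclear one, lower in both Nf1-mutant libraries than in their controls. Dusp6 (chromosome 10, 99263231 to 99267489, plus strand) was at 84.1 (PKO-NF1), 94.4 (NF1), 47.8 (PKO) and 72.7 CPM (WT). With TMM scaling both Nf1-mutant libraries were above both others, and all neighbours in this order differed beyond counting error. The step from WT to PKO-NF1 was lost after correction for trends in transcript length and GC content (log2 -0.05, -0.16 to 0.07). Scaled by total counts, PKO-NF1 was below WT (log2 -0.17, -0.28 to -0.06). Dusp6 was 1.76-fold above PKO in PKO-NF1 (1.62 to 1.92) and 1.30-fold above WT in NF1 (1.21 to 1.40), which left it short of 2-fold in each pair. Dusp4 (chromosome 8, 34807297 to 34819894, plus strand) was at 4.45 (PKO-NF1), 4.67 (NF1), 6.86 (PKO) and 13.2 CPM (WT). Here both Nf1-mutant libraries were below both others, and PKO-NF1 and NF1 did not differ beyond counting error. The Dusp4 level was 2.83-fold below WT in NF1 (2.21 to 3.65) and 1.54-fold below PKO in PKO-NF1 (1.14 to 2.09). After correction for trends in transcript length and GC content, the Dusp4 log2 ratio was -1.23 in NF1 vs WT and, within counting error, -0.34 in PKO-NF1 vs PKO (-0.78 to 0.09). Dusp5, a nuclear ERK phosphatase, had only 19 counts in PKO-NF1, 25 in NF1, 11 in PKO and 20 in WT, and no neighbours in its order differed beyond counting error.

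The Sprouty genes fell into 2 patterns. Spry2 (chromosome 14, 105891947 to 105896819, minus strand) was at 51.1 (PKO-NF1), 58.0 (NF1), 36.5 (PKO) and 42.7 CPM (WT). It was 1.40-fold above PKO in PKO-NF1 (1.26 to 1.55) and 1.36-fold above WT in NF1 (1.24 to 1.49). Ratios followed trends over transcript length and GC content, and with these removed the log2 ratio of Spry2 was 0.03 in PKO-NF1 vs PKO and 0.02 in NF1 vs WT, both within counting error. Spry4 (chromosome 18, 38586247 to 38601415, minus strand) was at 45.7 (PKO-NF1), 70.6 (NF1), 33.2 (PKO) and 48.7 CPM (WT), with PKO-NF1 and WT within counting error of each other. Spry4 was 1.38-fold above PKO in PKO-NF1 (1.23 to 1.53) and 1.45-fold above WT in NF1 (1.33 to 1.58), and removing the trends made both larger, at log2 0.80 and 0.86. Spry1 (chromosome 3, 37639947 to 37644598, plus strand), by contrast, was at 29.6 (PKO-NF1), 41.5 (NF1), 41.0 (PKO) and 48.2 CPM (WT). Its level was 1.39-fold below PKO in PKO-NF1 (1.23 to 1.56) and 1.16-fold below WT in NF1 (1.05 to 1.28). With the trends removed both Spry1 intervals included no difference, with log2 ratios of -0.14 and 0.10.

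The ETV factors did not move as a block. Etv1 (chromosome 12, 38779380 to 38870484, plus strand) was at 53.0 (PKO-NF1), 53.6 (NF1), 19.8 (PKO) and 35.8 CPM (WT). Both Nf1-mutant libraries were again above both others and within counting error of each other. Etv1 was 2.67-fold above PKO in PKO-NF1 (2.36 to 3.03) and 1.5-fold above WT in NF1 (1.35 to 1.66). Etv4 (chromosome 11, 101769742 to 101785371, minus strand) was at 22.1 (PKO-NF1), 38.1 (NF1), 19.3 (PKO) and 29.6 CPM (WT), so both P2ry14-null libraries were below both others. For Etv4 the difference between PKO-NF1 and PKO, 1.15-fold, lay within counting error (0.988 to 1.34), while NF1 was 1.29-fold above WT (1.15 to 1.44). With the trends removed the Etv4 log2 ratios were 0.58 and 0.63, both beyond counting error. The Etv4 step between PKO-NF1 and WT was then lost (log2 0.0, -0.2 to 0.2). Etv5 (chromosome 16, 22381309 to 22439719, minus strand) varied least of the 10 genes, with 28.4 (PKO-NF1), 32.7 (NF1), 31.5 (PKO) and 27.5 CPM (WT). Ranked by level (NF1, PKO, PKO-NF1, WT), no neighbours were apart beyond counting error. NF1 was 1.19-fold above WT (1.05 to 1.34), a log2 ratio of 0.25 that was 0.54 with the trends removed. PKO-NF1 and PKO were within counting error of each other, with or without the trends.

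Cyclin D1, Ccnd1 (chromosome 7, 144929931 to 144939925, minus strand), the D-type cyclin that partners CDK4 and CDK6 in early cell cycle entry, went opposite ways in the 2 Nf1 pairs. Its level was 348.6 (PKO-NF1), 279.9 (NF1), 171.8 (PKO) and 366.3 CPM (WT), and all neighbours in this order differed beyond counting error. Ccnd1 was 2.03-fold above PKO in PKO-NF1 (1.94 to 2.12) and 1.31-fold below WT in NF1 (1.26 to 1.36). The PKO library stood apart from the other 3, and PKO-NF1 was 1.05-fold below WT (1.01 to 1.09), a direction that turned with the trends removed (log2 0.23, 0.18 to 0.29).

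Taking the Nf1 pairs across the list, few of the 10 genes reached 2-fold in either pair. In NF1 vs WT none were higher and 1 was lower, Dusp4, where 10.4% of all genes were higher and 6.31% lower. In PKO-NF1 vs PKO 2 were higher, Etv1 and Ccnd1, and none lower, where 5.20% of all genes were higher and 9.70% lower. Counting error alone was exceeded by more of them. In NF1 vs WT the interval lay above 1 for 6 of the 10 (34.2% of all genes) and below 1 for 3 (35.2% of all genes). In PKO-NF1 vs PKO it lay above 1 for 5 (34.3%) and below 1 for 2 (35.1%). The median log2 ratio of the 10 genes was 0.31 for NF1 vs WT and 0.47 for PKO-NF1 vs PKO, where the medians of all genes were 0.00 and -0.01. These 2 pairs share no library, and 4 genes, Dusp6, Spry2, Spry4 and Etv1, had an interval above 1 in both, as did 18.8% of all genes; 2 genes, Dusp4 and Spry1, had one below 1 in both, as did 22.6%.

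**Figure D2:**
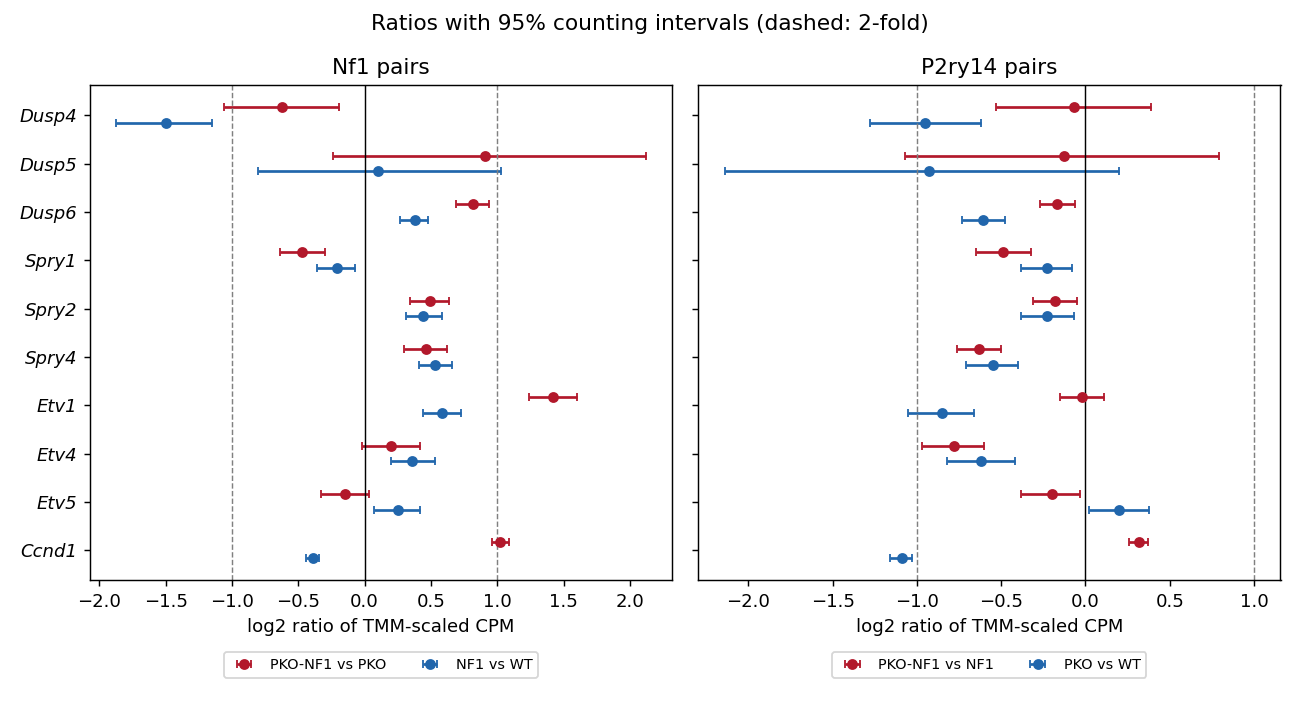
Log2 ratios of TMM-scaled CPM (horizontal axis) for the 10 genes in the 2 Nf1 pairs (left) and the 2 P2ry14 pairs (right), as points with 95% counting intervals, where dashed lines mark 2-fold. In the Nf1 pairs Etv1 and Ccnd1 pass 2-fold upward in PKO-NF1 vs PKO and Dusp4 passes it downward in NF1 vs WT, while Ccnd1 lies on opposite sides of 0 in the 2 pairs.

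The ratio of PKO-NF1 over PKO, divided by that of NF1 over WT, sets the Nf1 difference without P2ry14 beside the one with it. On the log2 scale it was 1.41 for Ccnd1 (interval 1.33 to 1.49), 0.88 for Dusp4 (0.33 to 1.42), 0.83 for Etv1 (0.60 to 1.06) and 0.44 for Dusp6 (0.28 to 0.60). It was below 0 for Etv5, at -0.40 (-0.65 to -0.15), and for Spry1, at -0.26 (-0.47 to -0.04). For Spry2, Spry4, Etv4 and Dusp5 the interval included 0. These intervals again hold counting error only, and each value rests on 4 single libraries.

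Between P2ry14-null libraries and their controls, most of the 10 genes were on the lower side. In PKO vs WT 1 gene was lower by at least 2-fold, Ccnd1, and none higher, where 5.22% of all genes were lower and 10% higher. Ccnd1 was 2.13-fold lower (2.04 to 2.23); once the 2 trends were removed its log2 ratio was -0.99, just short of 2-fold. The interval lay below 1 for 8 of the 10 genes (37.7% of all genes) and above 1 for Etv5 alone (29.1%), with a median log2 ratio of -0.61 against -0.08 for all genes. Dusp4 was 1.93-fold lower (1.54 to 2.42), Etv1 1.80-fold (1.58 to 2.06), Etv4 1.54-fold (1.34 to 1.77), Dusp6 1.52-fold (1.39 to 1.66) and Spry4 1.47-fold lower (1.32 to 1.63). The log2 ratio of Spry2 was -0.23, and -0.71 (-0.86 to -0.55) with the trends removed. With no TMM factors the all-gene median was -0.54, and 7 of the 10 were called lower (18.6% of all genes) and none higher (5.11%), and Etv5 was on the lower side (log2 -0.26, -0.44 to -0.08). PKO is also the control library of PKO-NF1 vs PKO, so its low levels enter the ratios of that pair.

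In PKO-NF1 vs NF1 none of the 10 genes reached 2-fold, where 7.90% of all genes were higher and 13.8% lower. The interval lay below 1 for 6 of them (37.5% of all genes), namely Dusp6, Spry1, Spry2, Spry4, Etv4 and Etv5, and above 1 for Ccnd1 (37.1%). Etv4 was 1.72-fold lower (1.52 to 1.96) and Spry4 1.54-fold lower (1.41 to 1.69). With the trends removed their log2 ratios were -0.68 and -0.4, and that of Spry2 was -0.66 (-0.79 to -0.53), against -0.18 as counted. Etv1, 1.01-fold lower (0.925 to 1.11), and Dusp4, 1.05-fold lower (0.763 to 1.45), were within counting error, although the Etv1 log2 ratio was 0.32 (0.19 to 0.45) with the trends removed. The 2 P2ry14 pairs share no library, and 5 genes, Dusp6, Spry1, Spry2, Spry4 and Etv4, had an interval below 1 in both, as did 25.1% of all genes. None had one above 1 in both, as did 21.5%.

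**Figure D3:**
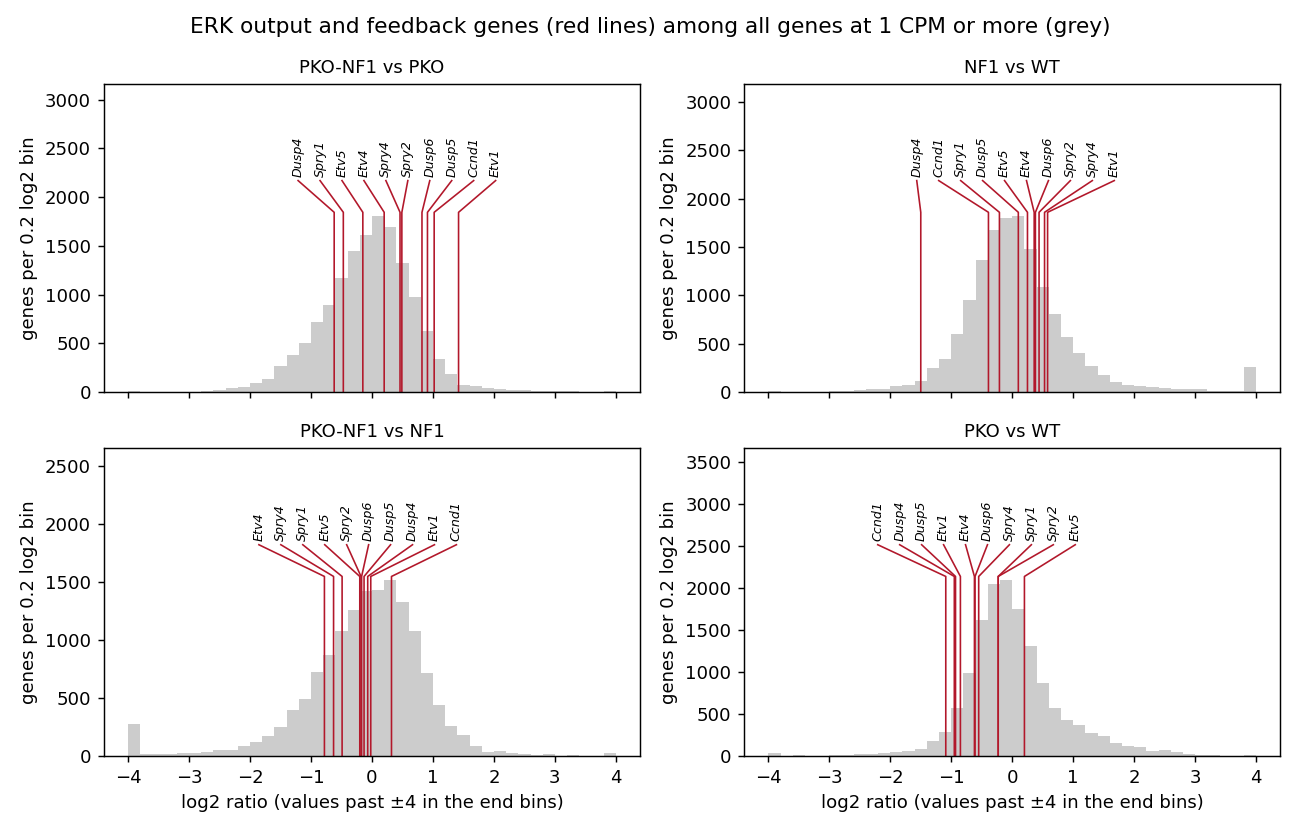
Histograms of the log2 ratios of all genes at 1 CPM or more (grey, genes per 0.2 log2 bin, values past 4 gathered in the end bins) with the 10 genes drawn as red lines in 4 comparisons. Dusp4 in NF1 vs WT, Etv1 in PKO-NF1 vs PKO and Ccnd1 in PKO vs WT lie toward the tails; the 10 genes are to the right of 0 for 7 of 10 in both Nf1 pairs and to the left of 0 for 9 of 10 in both P2ry14 pairs.

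Set beside WT, the PKO-NF1 library had 1 of the 10 genes lower by at least 2-fold, Dusp4 (2.97-fold, 2.27 to 3.92), and none higher, where 17.5% of all genes were lower and 14.7% higher. Etv1 was 1.48-fold higher (1.33 to 1.64), Spry2 1.2-fold higher (1.08 to 1.32) and Dusp6 1.16-fold higher (1.07 to 1.25). Spry1 was 1.63-fold lower (1.45 to 1.82) and Etv4 1.34-fold lower (1.17 to 1.54). Of these differences, those of Dusp4 and Etv1 kept their direction at log2 -1.18 and 0.76 with the trends removed, and that of Spry1 was smaller (-0.23). Spry2 turned to -0.60 (-0.74 to -0.45), and Dusp6 (-0.05, -0.16 to 0.07) and Etv4 (0.00, -0.20 to 0.20) were within counting error. For Dusp5, Spry4 and Etv5 the TMM-scaled interval included no difference. With the trends removed, Spry4 (log2 0.51, 0.37 to 0.65) and Etv5 (0.51, 0.32 to 0.7) were above WT, and Dusp5 stayed within counting error. The TMM-scaled interval lay above 1 for 3 of the 10 genes (38.7% of all genes) and below 1 for 4 (39.1%).

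A lower threshold and a stricter background were also applied. At 1.5-fold, 1 of the 10 genes was lower in NF1 vs WT, Dusp4 (16.7% of all genes), and none higher (19.2%). In PKO-NF1 vs PKO 3 were higher, Dusp6, Etv1 and Ccnd1 (15.6%), and 1 lower, Dusp4 (20.1%). In PKO vs WT 5 were lower, Dusp4, Dusp6, Etv1, Etv4 and Ccnd1 (15.3%), and none higher (16.2%). In PKO-NF1 vs NF1 2 were lower, Spry4 and Etv4 (24.1%), and none higher (20.0%), and in PKO-NF1 vs WT 2 were lower, Dusp4 and Spry1 (27.9%), and none higher (26.6%). Intervals are narrower for abundant genes, so the counts were repeated over the 11915 genes at a mean of 5 CPM or more, 9 of the 10 without Dusp5. There the interval lay above 1 for 6 of 9 in NF1 vs WT (36.2% of those genes) and below 1 for 3 (39.6%). In PKO-NF1 vs PKO it lay above 1 for 5 (38%) and below for 2 (38.7%), and in PKO vs WT above for 1 (31.6%) and below for 8 (42.0%). In PKO-NF1 vs NF1 it lay above 1 for 1 (41.3%) and below for 6 (39.2%), and in PKO-NF1 vs WT above for 3 (42.3%) and below for 4 (42.5%).

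Ratios between relatives inside a library do not depend on how libraries are scaled to each other, but they do depend on the length and GC trends. These ratios were added after the levels had been seen. There were 18.9 Dusp6 counts for each Dusp4 count in PKO-NF1 (interval 14.9 to 24.2) and 20.2 in NF1 (16.4 to 25.2), against 6.97 in PKO (5.76 to 8.49) and 5.50 in WT (4.77 to 6.37). The intervals of the Nf1-mutant libraries did not overlap those of the others, but the share of other gene pairs for which this holds was not counted. The log2 change of this ratio was 1.44 in PKO-NF1 vs PKO and 1.88 in NF1 vs WT, or 0.96 and 1.54 with the trends removed. Spry2 over Spry1 was 1.73 in PKO-NF1 (1.54 to 1.94) and 1.40 in NF1 (1.28 to 1.53), against 0.889 in PKO (0.799 to 0.990) and 0.887 in WT (0.802 to 0.982). With the trends removed this separation was largely lost, since the log2 changes of 0.96 in PKO-NF1 vs PKO and 0.66 in NF1 vs WT became 0.17 and -0.08. Spry4 over Spry1 was 1.54 in PKO-NF1 and 1.70 in NF1, against 0.810 in PKO and 1.01 in WT, and its log2 changes of 0.93 and 0.75 were 0.94 and 0.76 with the trends removed. Etv1 over Etv5 was 1.87 in PKO-NF1 (1.67 to 2.09) and 1.64 in NF1 (1.49 to 1.81), against 0.630 in PKO (0.550 to 0.721) and 1.30 in WT (1.15 to 1.47). With the trends removed its log2 change was 1.17 in PKO-NF1 vs PKO, against 1.57 as counted, and turned to -0.15 in NF1 vs WT, against 0.33 as counted. Etv4 over Etv5 split the libraries the other way, at 0.781 in PKO-NF1 and 0.613 in PKO, against 1.17 in NF1 and 1.08 in WT.

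Likeness of pattern was measured as the root mean square difference of log2 CPM over the 4 libraries after each gene's own mean was removed. Spry4 and Etv4 were each other's nearest neighbour among the 10 genes, 0.12 apart, and between 1.04% and 1.23% of 14565 genes were as near to either. Dusp6 and Dusp5 were also 0.12 apart, with Dusp5 at few counts. Etv1 was nearest to Dusp6 (0.23 apart, 1.58% of genes as near) and Spry2 also to Dusp6 (0.15, 4.06%). Dusp4 was far from every other member, with Spry1 nearest at 0.46, and 16.5% of all genes were as near to it. By that share Spry1 (nearest to Etv5, 0.27 apart, 19.7%) and Etv5 (nearest to Spry2, 0.26 apart, 17.7%) were no closer to a member.

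Other genes of the pathway were described by list, with higher and lower counted by the 2-fold rule. Of all genes, 10.4% were higher and 6.31% lower in NF1 vs WT. In PKO-NF1 vs PKO 5.2% were higher and 9.7% lower. Shares for the other pairs are given above. Whether a list held more calls than these shares was not tested. Of 29 other ERK feedback and output genes 23 were measured at 1 CPM or more, and their median log2 ratio was -0.42 for NF1 vs WT (none higher, 1 lower) and -0.04 for PKO-NF1 vs PKO (1 higher, 1 lower), or -0.27 and 0.08 with the trends removed. The lower one in NF1 was Epha2, an ephrin receptor, at 10.9 CPM in NF1 and 25.6 CPM in WT, a log2 ratio of -1.23 that was -0.71 with the trends removed. In PKO-NF1 vs PKO the protease inhibitor gene Tfpi2 was 3.26-fold higher (2.39 to 4.49) and Spred3, of the Sprouty-related family, 3.97-fold lower (2.57 to 6.34). With the trends removed Tfpi2 had a log2 ratio of 0.77, short of 2-fold, and Spred3 one of -1.49. Errfi1, a feedback inhibitor of the EGF receptor and one of the 2 most abundant of this list, was 1.87-fold below WT in NF1 (1.76 to 1.99) and within counting error in PKO-NF1 vs PKO. In PKO vs WT this list had a median of -0.47 (none higher, 1 lower), and in PKO-NF1 vs NF1 0.19 (2 higher, 3 lower).

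Immediate early genes, the first transcripts to follow a pulse of ERK activity or handling of tissue, had 22 of 23 measured. Their median was -0.48 in NF1 vs WT (1 higher, 5 lower), -0.28 in PKO-NF1 vs PKO (2 higher, 2 lower) and -0.33 in PKO vs WT (1 higher, 2 lower). With the trends removed these medians were -0.43, 0.0 and -0.3. Fos was 2.58-fold above PKO in PKO-NF1 (2.07 to 3.24) and 3.84-fold below WT in PKO (3.12 to 4.75), the same low PKO library that Ccnd1 showed. Egr1 was 2.11-fold below WT in PKO (1.90 to 2.35), and its log2 ratio of -1.08 was -0.72, short of 2-fold, with the trends removed. Klf2 and Klf4, Krüppel-like factors of vessel wall cells, were 2.21-fold (2.02 to 2.43) and 2.15-fold lower (1.97 to 2.34) in NF1 than in WT, and both were short of 2-fold with the trends removed (log2 -0.98 and -0.82). Summed endothelial markers were also lower there, at 887.6 CPM in NF1, compared with 1530.7 CPM in WT, and their part in these values was not tested.

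Genes of the cascade itself had medians close to 0: 33 of 34 were measured, with -0.04 for NF1 vs WT (4 higher, none lower) and 0.05 for PKO-NF1 vs PKO (none higher, 4 lower). Among all genes 10.4% were higher in NF1 vs WT and 9.7% lower in PKO-NF1 vs PKO. The 4 higher in NF1 were Hras, Ksr1, Cnksr1 and Rps6ka2. Hras, a RAS gene, was 2.33-fold higher (2.17 to 2.50), the scaffold gene Ksr1 2.69-fold (2.44 to 2.97) and the scaffold gene Cnksr1 28.2-fold (15.9 to 55.0). With the trends removed the log2 ratio of Ksr1 was 2.08, against 1.43. Skeletal muscle markers summed to 63526 CPM in NF1, compared with 1097 CPM in WT, with 18 of the 19 measured at 1 CPM or more at least 2-fold higher, and their part in these values was not tested. In PKO-NF1 vs PKO, where muscle markers summed to 339.4 CPM and 151.1 CPM, Ksr1 was 2.66-fold lower (2.20 to 3.24), and Mknk2, a kinase that ERK activates, was 2.48-fold lower (2.34 to 2.63). Neither reached 2-fold with the trends removed, at log2 -0.57 for Ksr1 and -0.71 for Mknk2. Mapk3, one of the ERK genes and one of the 2 most abundant of the list, was 1.78-fold below WT in NF1 (1.72 to 1.84) and 1.08-fold above PKO in PKO-NF1 (1.05 to 1.11).

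Among 13 measured transcription factor genes downstream of ERK, the median was 0.03 for NF1 vs WT (1 higher, 1 lower) and -0.17 for PKO-NF1 vs PKO (none higher, 4 lower). With the trends removed these medians were 0.28 and 0.11. Cic, which encodes the repressor named above, was lower in both Nf1 pairs, at 76.4 CPM in NF1, compared with 155.0 CPM in WT (2.03-fold, 1.90 to 2.16) and at 39.8 CPM in PKO-NF1, compared with 106.0 CPM in PKO (2.67-fold, 2.44 to 2.92). Once both trends were removed, the log2 ratios of Cic were -0.16 and -0.15. Srf was at 17.1 CPM in PKO-NF1, compared with 42.2 CPM in PKO (2.46-fold lower, 2.14 to 2.83), and was within counting error in NF1 vs WT (1.07-fold, 0.965 to 1.18). Its log2 ratio in PKO-NF1 vs PKO was -1.30, and -0.72 with the trends removed. Mef2c, which muscle also expresses, was 14.8-fold above WT in NF1 (13.5 to 16.3).

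Both lists of genes upstream of ERK had negative medians in the Nf1 pairs. The 20 growth factor receptor genes had medians of -0.57 for NF1 vs WT (1 higher, 2 lower) and -0.64 for PKO-NF1 vs PKO (none higher, 4 lower), or -0.21 and -0.17 with the trends removed. Erbb2, the neuregulin co-receptor of Schwann cells, was 2.20-fold below PKO in PKO-NF1 (1.95 to 2.49), a log2 ratio of -1.14 that was -0.36 with the trends removed. The fibroblast growth factor receptor gene Fgfr3 was 2.89-fold below WT in NF1 (2.29 to 3.67) and 2.08-fold below PKO in PKO-NF1 (1.57 to 2.77), and the second of these was short of 2-fold with the trends removed (log2 -0.47). The 9 measured RAS GTPase-activating protein genes, Nf1 among them, had medians of -0.20 for NF1 vs WT (none higher or lower) and -1.0 for PKO-NF1 vs PKO (none higher, 3 lower), or -0.10 and -0.31 with the trends removed. Dab2ip, one of them, was at 39.4 CPM in PKO-NF1, compared with 100.8 CPM in PKO, a log2 ratio of -1.35 that was -0.31 with the trends removed.

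Of 11 other dual-specificity phosphatase family genes 2 were higher and 1 lower in NF1 vs WT (median -0.13), and 1 was higher and 1 lower in PKO-NF1 vs PKO (median -0.19). With the trends removed these medians were 0.26 and -0.07. Dusp10, a phosphatase of the stress-activated kinases JNK and p38, was 2.95-fold above WT in NF1 (2.12 to 4.17). Styx, a catalytically inactive relative, was higher in both Nf1 pairs, by 5.27-fold (4.34 to 6.44) and by 2.19-fold (1.70 to 2.86). Dusp15 was at 205.7 CPM in NF1, compared with 416.1 CPM in WT, and at 130.6 CPM in PKO-NF1, compared with 237.4 CPM in PKO. Its log2 ratio in NF1 vs WT, -1.02, was -0.59 with the trends removed. Besides Ccnd1, 15 genes of early cell cycle entry had medians of -0.14 for NF1 vs WT (none higher or lower) and -0.06 for PKO-NF1 vs PKO (1 higher, none lower), or -0.01 and 0.14 with the trends removed. The higher one was Ccne2, at 3.97 CPM in PKO-NF1, compared with 1.86 CPM in PKO, and this call was lost with the trends removed (log2 0.14, against 1.1). In PKO vs WT, Cdk6, a partner of cyclin D1, was 2.97-fold lower (2.06 to 4.35), and the inhibitor gene Cdkn2c was 3.48-fold higher (3.20 to 3.78).

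**Figure D4:**
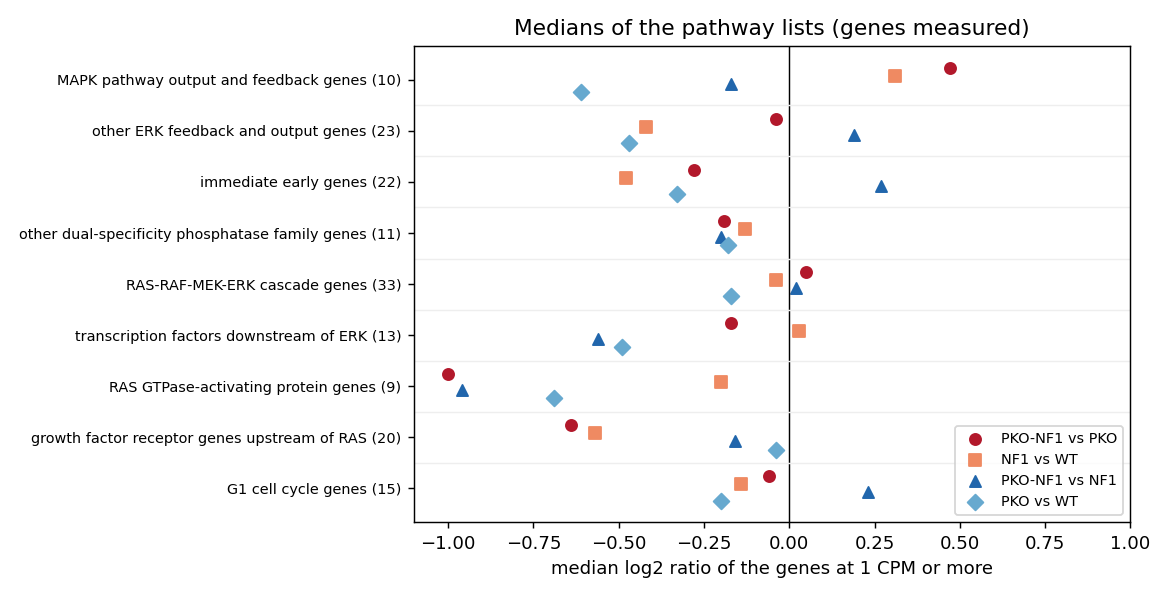
Median log2 ratio (horizontal axis) of the 10 genes and of 8 other lists of the pathway, with the number of genes measured at 1 CPM or more in brackets, in 4 comparisons given by colour and shape. The 10 genes have the medians farthest to the right in both Nf1 pairs, at 0.47 and 0.31, and the RAS GTPase-activating protein genes the one farthest to the left, at -1.0 in PKO-NF1 vs PKO.

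Summed cell type markers differed between the libraries. Those of skeletal muscle had the same highest and lowest library as Dusp5, Dusp6, Spry2, Spry4, Etv1 and Etv4. Skeletal muscle markers were highest in NF1 and lowest in PKO, at 339.4 (PKO-NF1), 63526 (NF1), 151.1 (PKO) and 1097 CPM (WT). Endothelial markers were highest in PKO and lowest in NF1, at 1432, 887.6, 1954 and 1531 CPM in the same libraries. The PKO library, lowest for 7 of the 10, was also lowest for the summed non-myelinating and repair Schwann cell markers, at 698.7 (PKO-NF1), 883.0 (NF1), 455.2 (PKO) and 886.8 CPM (WT). Of 13 such markers measured, 8 were lower and 2 higher in PKO vs WT, and 4 were higher and 1 lower in PKO-NF1 vs PKO. The same library was highest for the 24 ribosomal protein genes listed, at 49118 (PKO-NF1), 26771 (NF1), 65736 (PKO) and 12717 CPM (WT). Macrophage markers summed to 3861, 2029, 2630 and 1720 CPM in PKO-NF1, NF1, PKO and WT, mast cell markers to 1024, 416.8, 1125 and 421.4 CPM, and adipocyte markers to 16089, 6791, 23429 and 9716 CPM. Pericyte and smooth muscle markers summed to 1018, 2222, 1177 and 773.4 CPM, nerve fibroblast and perineurial markers to 17462, 10212, 15925 and 11414 CPM, Schwann cell lineage markers to 4191, 2922, 3128 and 3434 CPM, and neuronal markers to 89.2, 39.3, 117.7 and 49.1 CPM in the same libraries. Sums weigh abundant markers most, and list medians could go the other way. The median log2 ratio of pericyte and smooth muscle markers was -0.42 in NF1 vs WT (2 higher, 3 lower). That of Schwann cell lineage markers was -0.95 in PKO-NF1 vs WT (none higher, 4 lower). The part of these cell types, and of skeletal muscle, in the levels of the 10 genes was not tested.

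An additive model over the 4 libraries, with one coefficient for the loss of Nf1 and one for that of P2ry14, had 1 residual degree of freedom, that of the interaction, and so no measure of the spread between animals. At an adjusted p under 0.05 (edgeR quasi-likelihood test, Benjamini-Hochberg over 14105 genes) the Nf1 term called none of the 10 genes and 0 of all genes. At an unadjusted p under 0.05 it called 2944 of all genes, 20.9%, and 2 of the 10, and the DESeq2 Wald test (adjusted p) called 308 of all genes and none of the 10. The fitted log2 change of Etv1 with Nf1 loss was 1.00 (SE 0.28, edgeR adjusted p = 0.184), and that of Dusp4 was -1.07 (SE 0.36, edgeR adjusted p = 0.204). The P2ry14 term called none of the 10 and 7 of all genes, 0.0496%. Its unadjusted p was under 0.05 for 3551 of all genes, 25.2%, and for Etv4 and Spry4, and the DESeq2 Wald test called 798 of all genes and none of the 10. Etv4 had a fitted log2 change of -0.70 with P2ry14 loss (SE 0.21, edgeR adjusted p = 0.158) and Spry4 one of -0.59 (SE 0.21, edgeR adjusted p = 0.176).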

How the data were processed

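RNA was measured in mouse sciatic nerve, with 1 library for each of 4 genotypes (PKO-NF1, NF1, PKO and WT). Per the labels' protocols, each TruSeq library used 1 ug of Trizol-extracted RNA. The authors deposited a table of whole-number counts per gene symbol. The build mm10 and the tools featureCounts 1.5.2, HISAT2 2.0.5 and FastQC 0.11.7 are listed in the submitters' processing notes. How strand and multiply mapped reads were treated is not given in the sources used, so antisense and overlapping genes are uncertain.

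Counts were scaled with edgeR 4.0.16 TMM factors (0.873 to 1.201). Per-kilobase levels, coordinates and trends used GENCODE M21 on GRCm38, to which 98.4% of symbols matched. Ratios, their intervals and the 2-fold rule were run on simulated data that held counting error only. The additive model took genes at 1 CPM in at least 2 libraries and was fitted with edgeR and with DESeq2 1.42.0. Its edgeR form was run on simulated data with less spread than was fitted here (common biological coefficient of variation 0.27). These runs check the code and not how well the methods perform on these data. Trends were splines with 4 degrees of freedom in log10 transcript length and GC content, subtracted with the median gene kept. Intervals cover counting error only, since each genotype has 1 library. They also make no allowance for PCR copies, which are not independent molecules.

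The 10 genes and the lists (8 of other pathway genes, 11 of cell type markers, 1 of ribosomal protein genes) were chosen with earlier results of these data known. Genes named from the 8 lists are up to 3 per direction that met the 2-fold rule in NF1 vs WT, PKO-NF1 vs PKO or PKO vs WT, ranked by the interval bound nearest to 1, and the 2 most abundant; the text gives those it needs. Comparisons, scalings, filters and thresholds tried are in the closing section.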

Additional observations from a re-analysis of the deposited data

Results flagged for a closer look

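Ccnd1 differed in direction between the 2 Nf1 pairs, of which 1 is without P2ry14 and 1 with it. It was 2.03-fold above PKO in PKO-NF1 and 1.31-fold below WT in NF1, which are 1.41 apart on the log2 scale. The same 4 libraries set PKO-NF1 1.25-fold above NF1 and PKO 2.13-fold below WT. That gap is also 1.41 by construction, so it adds no further evidence. Etv5 was 1.15-fold lower in PKO-NF1 than in NF1 and 1.15-fold above WT in PKO, with intervals that excluded no difference on opposite sides and a log2 difference of -0.40. That opposition was not kept with total counts, where Etv5 was on the lower side in PKO vs WT (log2 -0.26), nor beyond counting error with the trends removed, where PKO-NF1 vs NF1 was -0.09 (-0.26 to 0.09). With 1 library per genotype none of these differences was tested against a spread between animals.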

How the results depend on the processing

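The number of the 10 genes past the 2-fold rule was the same with DESeq2 size factors, with TMM recomputed without muscle, adipocyte and ribosomal genes, with no filter and with a 5 CPM filter, in all 5 comparisons. Scaling by total counts moved the median of all genes to -0.22 in NF1 vs WT, -0.54 in PKO vs WT, -0.18 in PKO-NF1 vs NF1 and -0.37 in PKO-NF1 vs WT. Under it the median of the 10 genes was 0.09 in NF1 vs WT, -1.07 in PKO vs WT and -0.43 in PKO-NF1 vs WT. In PKO vs WT 7 of the 10 were called, and 3477 of all genes (23.7%). In PKO-NF1 vs WT 2 of the 10 were called, and 35.0% of all genes. The share of calls that were higher was then 41.2% in NF1 vs WT (62.3% with TMM), 21.6% in PKO vs WT (65.7%), 22.5% in PKO-NF1 vs NF1 (36.4%) and 19.7% in PKO-NF1 vs WT (45.6%). A 1.5-fold threshold called 5 of the 10 in PKO vs WT, 4 in PKO-NF1 vs PKO, 2 in PKO-NF1 vs NF1 and 2 in PKO-NF1 vs WT, and of all genes 5266 in NF1 vs WT, 5250 in PKO-NF1 vs PKO, 4630 in PKO vs WT, 6475 in PKO-NF1 vs NF1 and 8006 in PKO-NF1 vs WT. With the length and GC trends removed 0 of the 10 were called in PKO vs WT, where 10.7% of all genes were. In PKO-NF1 vs PKO 3 were then called, with Dusp5 (log2 1.2, interval 0.05 to 2.42) added, where 7.83% of all genes were. Of all genes 1151 were called in PKO-NF1 vs PKO (43.6% of calls higher, against 34.9%) and 1885 in PKO-NF1 vs WT. In PKO vs WT 52.2% of calls were higher. In the additive model the Nf1 term called 46 genes with no filter and 308 with the DESeq2 Wald test, and the P2ry14 term 108 and 798, or 0 without the Nf1 term; none of the 10 was called under any of these. No called ratio of the 10 changed sign, but uncalled ones did. With both values beyond counting error, the trends turned Spry2 (log2 0.26 to -0.60) and Ccnd1 (-0.07 to 0.23) in PKO-NF1 vs WT, and total counts turned Dusp6 in PKO-NF1 vs WT (0.21 to -0.17) and Etv5 in PKO vs WT (0.20 to -0.26). Alternatives for the ratio of ratios were chosen after seeing the data; it changed sign by total counts for Etv4 (log2 0.13), Spry1 (0.04) and Spry4 (0.22). The causes were not tested. No paired analysis was possible because each genotype has 1 library and leaving out a library ends its comparison. Dusp5, at 11 to 25 counts, is limited by depth.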
